A study of Mus musculus with 10 samples.

Results

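The Hippo pathway genes described here are 10 of the 53379 genes counted in MC38 tumor cells: the coactivator genes Yap1 and Wwtr1 (which encodes TAZ), the transcription factor genes Tead1 to Tead4, the kinase genes Lats1 and Lats2, and Amotl2 and Ankrd1. They were found by name, as the rows of the count table whose Ensembl identifier carries these symbols. The rule uses no threshold on a measured value, but the genes were chosen with earlier results of these data known. MC38 cells derive from a colon carcinoma of a C57BL/6 mouse, and the hosts were C57BL/6J. Both groups carried the same dTomato-marked MC38 tumors and were sorted 21 days after implantation for dTomato and the absence of the leukocyte protein CD45, so the host diet is what the labels set apart: 5 mice were fed a control diet and 5 a high-fat diet, with 1 RNA-seq library of polyadenylated RNA per mouse. The sources used here do not state what the diets contained, how long they were fed, or how old and of which sex the mice were. The cells are 1 line, marked by 1 transgene, so the comparison is limited to that line. The comparison asks how transcripts of the tumor cells differ when the host eats a high-fat diet.

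In the Hippo pathway, a kinase chain ends in LATS1 and LATS2, which phosphorylate the coactivators YAP and TAZ and so keep them in the cytoplasm or mark them for breakdown. Coactivators that escape this enter the nucleus, bind the TEAD proteins, which supply the contact with DNA, and switch on genes of growth and of the cytoskeleton. Several targets feed back on the pathway, Lats2 and Amotl2 among them. Because the pathway is controlled through phosphorylation and location, transcript levels of its components do not measure how active it is.

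The control libraries held 17050797 to 18653705 counts and the high-fat libraries 16513388 to 17154050. All control libraries but that of mouse 1 held more counts than any high-fat library. A fit with library size as a covariate therefore cannot fully tell library size from diet. Levels are TMM-scaled CPM, that is, counts scaled to a common library size with a correction for library composition. Differences are high-fat minus control on the log2 scale, tested by quasi-likelihood in edgeR and adjusted by Benjamini-Hochberg over the 14337 genes expressed well enough to test. All 10 Hippo genes were among them, with between 4519 and 84011 counts over the 10 libraries. Across all genes tested, 0.0628% passed an adjusted p of 0.05 and 12.1% had an unadjusted p under 0.05. In RNA from a sorted population, fewer cells that express a gene and less RNA per cell cannot be told apart.

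The labelled cell type was checked against marker lists for the cells that the sort could hold. Markers of colonic epithelium (9 genes, among them Epcam, Cdx2 and Krt20) summed to only 1.22 to 6.29 CPM, so the epithelial markers of the labelled carcinoma were near 0. A fibroblast list of 8 genes summed to 6795 to 11768 CPM in control and 6134 to 12220 CPM in high-fat mice. Most of that sum was Col3a1 (mean 7798 CPM over the 10 libraries), with Dcn at 1002, Pdgfra at 383 and Dpt at 98.7 CPM, while Lum (14.2 CPM), Pi16 (2.39 CPM), Col14a1 (1.34 CPM) and Mfap5 (0.852 CPM) were low. Endothelial markers (8 genes) summed to 17.7 to 25.6 CPM in control and 22.3 to 33.3 CPM in high-fat mice. Pericyte and smooth muscle markers (6 genes) summed to 242 to 267 and 259 to 346 CPM. Nearly all of that sum was Pdgfrb (mean 149 CPM over the 10 libraries) and Cspg4 (129 CPM). Rgs5, Notch3, Myh11 and Cnn1 had no more than 14, 4, 6 and 3 counts in any library. Adipocyte markers (6 genes) summed to 7.32 to 20.3 and 3.18 to 9.11 CPM, nearly all of it Fabp4. Pan-leukocyte markers (9 genes) summed to 22.3 to 209 CPM in control and 14.9 to 58.3 CPM in high-fat mice, highest in control mice 3 and 4, which also stood apart by summed macrophage markers (361 and 408 CPM, against 30.2 to 156 CPM in the other 8 libraries). All pan-leukocyte, macrophage and fibroblast markers were expressed well enough to test. So were 2 of 6 pericyte and smooth muscle, 2 of 8 endothelial, 1 of 6 adipocyte and 1 of 9 epithelial markers. None of the markers tested passed over all genes in edgeR. At an unadjusted edgeR p under 0.05, lower on the high-fat diet were 11 macrophage, 5 pan-leukocyte and 1 adipocyte markers. Higher were 1 fibroblast, 1 pericyte and smooth muscle, 1 endothelial and 2 striated muscle markers. Of all genes tested, 6.62% were lower and 5.45% higher by that measure. The part of cells carrying these markers in the levels of the Hippo genes was not tested.

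The coactivators, the TEADs and the LATS kinases had log2 differences between -0.16 (Lats1) and 0.12 (Wwtr1), and Ankrd1 was the member with the widest gap, at a mean of 73.8 CPM under the control diet (SD 20.2, n = 5) against 44.9 CPM under the high-fat diet (SD 13.1, n = 5). None of the 10 passed the threshold in edgeR, where adjusted p ran from 0.242 for Ankrd1 to 0.967 for Tead3. At an unadjusted p under 0.05 there was 1 member, Ankrd1, against the 12.1% of all genes given above. That count was 3 without control mouse 5 (Wwtr1 higher, Ankrd1 and Lats1 lower), 2 without high-fat mouse 3 (Ankrd1 and Lats1) and 0 with library size as a covariate. Among all genes tested, those fits gave 1529 of 14510, 1513 of 14439 and 817 of 14337. With all libraries and no covariate it was 1731 of 14337. Of the 10 differences 8 were negative and 2 positive, with a median of -0.06, while 48.6% of all genes tested had a negative difference and their median was 0.01. For none of the 10 did the libraries of one diet lie wholly beyond those of the other, as they did for 2.18% of genes tested. The members differed more among themselves in how steady they were across mice: the coefficient of variation over the 10 libraries was 4.58% for Yap1 and 37.3% for Ankrd1, against a median of 13.2% over all genes tested. That median was 10.2% among genes with a mean of at least 20 CPM, as all 10 members had. The figure for Ankrd1 includes its gap between diets.

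**Figure D1:**
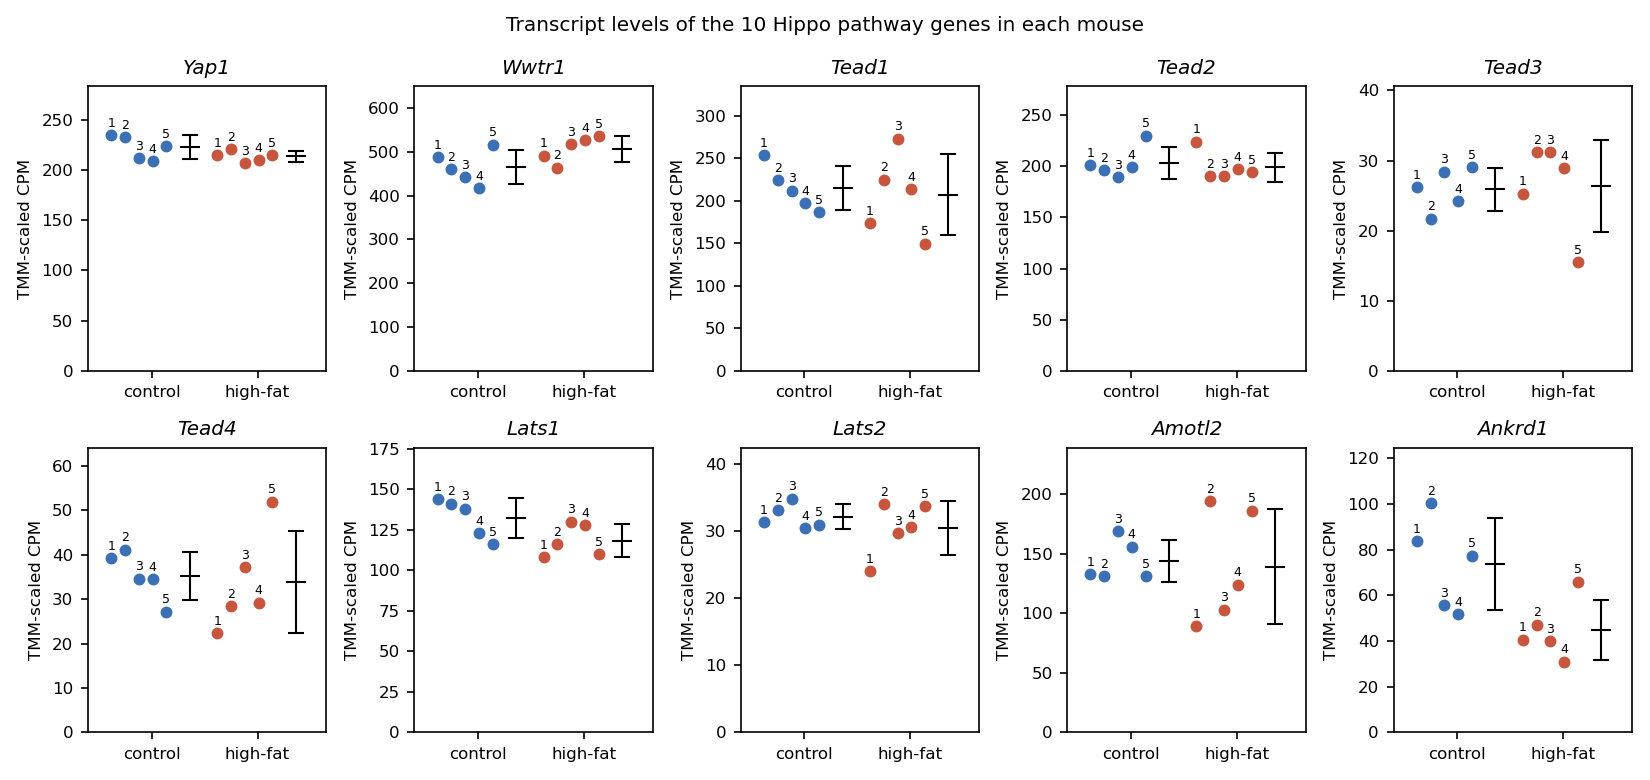
TMM-scaled CPM (vertical axis, from 0) of each of the 10 genes in control (blue) and high-fat (red) mice; points are single libraries labelled with the mouse number, and the bar beside them is the mean ± SD of 5 mice. Yap1 varied least, Ankrd1 was lowest in 4 high-fat mice, and high-fat mouse 5 was highest for Tead4 (52.0 CPM) and lowest for Tead1 and Tead3.

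Yap1 (ENSMUSG00000053110.13, chromosome 9, 7931999 to 8004596, minus strand of GRCm38, as for all gene coordinates here) encodes YAP, the coactivator for which this branch of the pathway is best known. Its level was 235, 233, 212, 209 and 224 CPM in control mice 1 to 5 and 215, 221, 207, 209.8 and 215 CPM in high-fat mice 1 to 5. All 10 libraries lay within a 1.14-fold range, and 4 of the 5 high-fat libraries were inside the control range. The log2 difference was -0.06 (SE 0.06, edgeR adjusted p = 0.765). Its 95% interval, from limma-voom, allowed a high-fat level between 0.877 and 1.05 times the control level.

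Wwtr1 (ENSMUSG00000027803.14, chromosome 3, 57455649 to 57575910, minus strand) encodes TAZ, the close relative of YAP. It stood at 488, 461, 442, 417 and 516 CPM in control mice and at 491, 464, 517, 527 and 535 CPM in high-fat mice, in mouse order. The 3 highest values of all 10 were those of high-fat mice 3 to 5, and the other 2 high-fat libraries fell within the control range. The log2 difference of 0.12 (SE 0.08) did not pass (edgeR adjusted p = 0.569), and its limma-voom interval ran from 0.975 to 1.22 times the control level.

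Compared per kilobase of exon, which allows levels of different genes to be set side by side, Wwtr1 was the more abundant coactivator transcript in every library. Its level was between 3.82 and 4.46 times that of Yap1 in control mice (mean 4.04 ± 0.251, SD, n = 5) and between 4.06 and 4.87 times in high-fat mice (mean 4.60 ± 0.355, SD, n = 5). These ranges overlap, and the ratio, which combines members whose separate differences did not pass, was not tested. With the length of the longest transcript in place of the union of exons the ratio was smaller, between 2.22 and 2.82 over all mice, and Wwtr1 remained above Yap1 in each.

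The TEAD genes encode the DNA-binding partners of YAP and TAZ. Tead2 (ENSMUSG00000030796.17, chromosome 7, 45215753 to 45233644, plus strand), known from embryonic tissues, was the steadiest of them: 201, 196, 189, 199 and 229.7 CPM in control mice and 224, 190.2, 190.0, 197 and 194 CPM in high-fat mice. Control mouse 5 and high-fat mouse 1 were the high libraries, and the rest lay close together under both diets. The log2 difference was -0.03 (SE 0.07, edgeR adjusted p = 0.927), with a limma-voom interval of 0.880 to 1.10 times the control level. The annotated exons of Tead2 overlap those of Cd37 on the opposite strand by 13 bases, and the strand setting of the counting is unknown.

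Tead1 (ENSMUSG00000055320.17, chromosome 7, 112679318 to 112906807, plus strand), the most broadly expressed TEAD in adult tissues, varied more. Its level was 254, 224, 212, 197 and 187 CPM in control mice and 174, 225, 273, 214 and 149.7 CPM in high-fat mice. High-fat mice held both the highest value (mouse 3) and the lowest (mouse 5), so the high-fat range enclosed the control range. Its log2 difference of -0.05 (SE 0.14) had an edgeR adjusted p of 0.926, and leaving out high-fat mouse 5 turned it to 0.05.

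Tead3 (ENSMUSG00000002249.20, chromosome 17, 28331671 to 28350817, minus strand), first known from placenta, was at 26.2, 21.7, 28.4, 24.2 and 29.1 CPM in control mice and 25.3, 31.2, 31.2, 28.9 and 15.5 CPM in high-fat mice. High-fat mouse 5 was again the low library. Tead4 (ENSMUSG00000030353.15, chromosome 6, 128224288 to 128300823, minus strand), which the early embryo needs to form the trophectoderm, was at 39.2, 41.2, 34.6, 34.5 and 27.2 CPM in control mice and 22.3, 28.4, 37.2, 29.2 and 52.0 CPM in high-fat mice. Here high-fat mouse 5 was the high library, and high-fat mouse 1 the low one. The log2 differences were 0.03 (SE 0.17, edgeR adjusted p = 0.967) for Tead3 and -0.06 (SE 0.20, edgeR adjusted p = 0.937) for Tead4. Their limma-voom intervals, 0.762 to 1.30 and 0.688 to 1.25 times the control level, were wider than that of Tead2.

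Per kilobase of exon, Tead2 made up most of the TEAD transcript in every mouse, between 53.1% and 67.3% of the sum of the 4 genes, Tead1 between 16.2% and 26.9%, Tead4 between 8.91% and 21.1% and Tead3 between 3.37% and 6.75%. The mean shares of Tead2 were 58.9% ± 3.81 in control and 59.3% ± 5.12 in high-fat mice (SD, n = 5). The sum itself was 71.9 ± 2.85 CPM per kilobase in control mice and 70.2 ± 2.61 in high-fat mice (SD, n = 5), so the total varied little while the mix did. High-fat mouse 5 had the largest share of Tead4, at 21.1%, and the smallest of Tead1 and Tead3. In that mouse the log2 ratio of Tead4 to Tead1 counts was -1.53, whereas the other 9 libraries lay between -2.98 and -2.45.

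**Figure D2:**
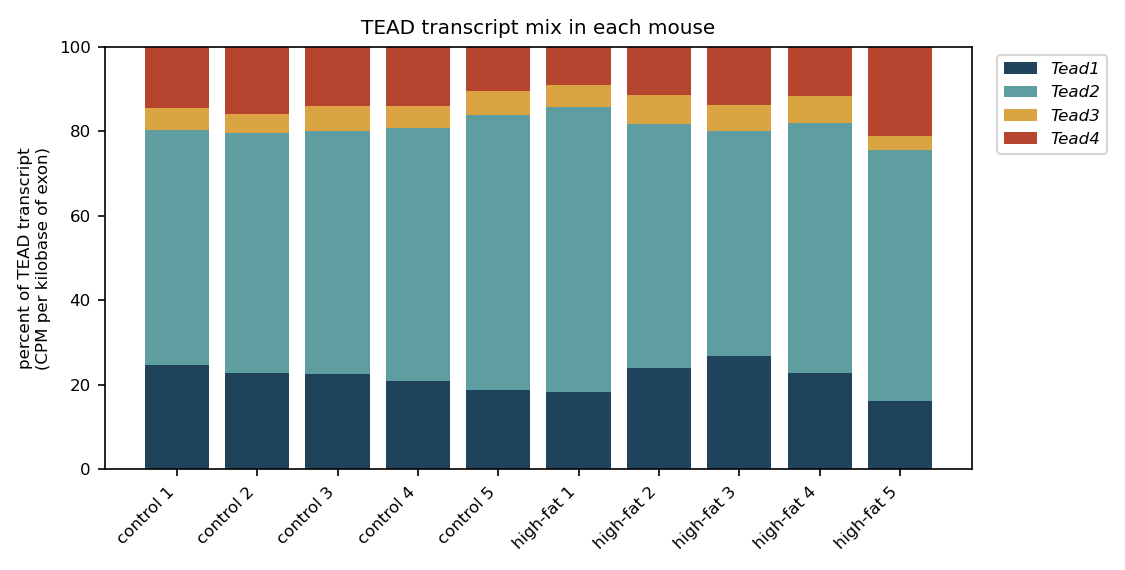
Share of each TEAD gene in the summed TEAD transcript (vertical axis, percent of CPM per kilobase of exon) in each of the 10 mice (horizontal axis). Tead2 fills over 50% of every bar, and high-fat mouse 5 differs from the rest by its Tead4 share of 21.1%.

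TEAD proteins bind a short element whose core is GGAATG, or CATTCC read on the other strand. RefSeq promoter windows of 300 bases, from 250 before to 50 after an annotated start (GRCm38.p6), were held for 8 of the 10 genes, and those of Tead1 and Tead4 are not in that table. Of the 8 genes, 6 had the core on one strand or the other in at least 1 window: Yap1, Wwtr1, Tead3, Lats2, Amotl2 and Ankrd1. Among all 26994 genes with a window the share was 16.6%. The windows of Tead2 and Lats1 hold the core on neither strand. A match of 6 letters is a description of the sequence and does not show that a TEAD protein binds there. Among the 22 listed targets described further on, 7 of the 15 with a window held the core. These include the members Ankrd1, Amotl2 and Lats2, already counted above. Of the listed upstream genes, also described further on, 8 of the 25 with a window held it. Ptpn14, which is in both of these lists, is counted in each.

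The Ankrd1 window holds the core at 2 places, and 1 of the Tead3 windows at 3; 1.36% of all windows hold 2 or more matches. The whole 250 bases before the start are shown for Ankrd1, the member with the widest gap between diets, and for Amotl2, a target without such a gap. For the other genes 30 bases around a match are given. All read 5′ to 3′ on the strand of the gene, and capitals mark the core.
Ankrd1, chr19:36119845-36120094, minus strand: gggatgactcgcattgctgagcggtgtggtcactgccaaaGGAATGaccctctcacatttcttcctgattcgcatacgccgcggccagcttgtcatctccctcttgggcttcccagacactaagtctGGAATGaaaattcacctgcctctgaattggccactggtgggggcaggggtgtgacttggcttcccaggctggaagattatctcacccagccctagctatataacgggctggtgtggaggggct
Amotl2, chr9:102717554-102717803, plus strand: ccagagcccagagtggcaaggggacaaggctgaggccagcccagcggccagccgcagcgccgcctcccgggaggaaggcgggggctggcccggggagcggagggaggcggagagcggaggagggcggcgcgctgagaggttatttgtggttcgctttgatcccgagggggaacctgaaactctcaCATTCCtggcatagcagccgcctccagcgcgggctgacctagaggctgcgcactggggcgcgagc
Lats2, chr14:57746102-57746131, minus strand: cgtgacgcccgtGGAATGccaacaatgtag
Yap1, chr9:8004720-8004749, minus strand: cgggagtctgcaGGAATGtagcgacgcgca
Wwtr1, chr3:57576029-57576058, minus strand: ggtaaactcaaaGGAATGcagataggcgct
Tead3, chr17:28350706-28350735, minus strand: tccggccgggctCATTCCgtaCATTCCggc
Counted from the annotated start, the first base of the core lies at -210 and -123 in Ankrd1 and at -65 in Amotl2. In Lats2 it lies at 5, just inside the transcribed part.

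The LATS kinases are the direct brake on YAP and TAZ. Lats1 (ENSMUSG00000040021.13, chromosome 10, 7681214 to 7716460, plus strand) was at 144, 141, 138, 123 and 116 CPM in control mice and at 108, 116, 129.9, 128 and 109.8 CPM in high-fat mice. Control mice 1 to 3 held the 3 highest values. High-fat mice 1, 2 and 5 lay below every control, mouse 2 only just, and the other libraries overlapped. The log2 difference of -0.16 (SE 0.08) did not pass (edgeR adjusted p = 0.459), and its limma-voom interval ran from 0.791 to 1.01 times the control level.

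Lats2 (ENSMUSG00000021959.16, chromosome 14, 57689662 to 57758388, minus strand) is both a kinase of the pathway and a target of YAP. It was at 31.4, 33.2, 34.9, 30.5 and 31.0 CPM in control mice and at 24.1, 34.1, 29.7, 30.6 and 33.8 CPM in high-fat mice, with high-fat mouse 1 as the low library. For Lats2 the log2 difference was -0.08 (SE 0.09, edgeR adjusted p = 0.803). The annotation places a predicted protein-coding gene, Gm49361, over 2955 bases of Lats2 exons on the same strand, and 56.5% of the 50-base windows of the longest Lats2 transcript occur in transcripts of another gene. The count table lists Gm49361 at 0 in every library. The level of Lats2 is therefore less certain than those of the other members, none of which shared more than 0.994% of its windows.

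Amotl2 (ENSMUSG00000032531.15, chromosome 9, 102716672 to 102733418, plus strand) encodes a scaffold that holds YAP at cell junctions and is itself a YAP target. It was at 133, 131, 169, 156 and 131 CPM in control mice and at 89.0, 194, 103, 124 and 186 CPM in high-fat mice. The high-fat mice split widely: mice 2 and 5 were above every control, and mice 1, 3 and 4 below every control. The log2 difference was -0.05 (SE 0.20, edgeR adjusted p = 0.952), with a limma-voom interval of 0.678 to 1.27 times the control level.

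Ankrd1 (ENSMUSG00000024803.8, chromosome 19, 36111961 to 36120099, minus strand) encodes an ankyrin repeat protein of heart muscle and of stretched or wounded cells and is one of the standard readouts of YAP and TAZ. It was at 83.8, 100.4, 55.6, 51.8 and 77.4 CPM in control mice and at 40.6, 47.2, 39.9, 30.9 and 66.0 CPM in high-fat mice. High-fat mice 1 to 4 lay below every control, and high-fat mouse 5 lay above control mice 3 and 4. The log2 difference was -0.72 (SE 0.22), a high-fat level of 0.609 times the control level. It had an unadjusted p of 0.00768 in edgeR but did not pass over all genes tested (edgeR adjusted p = 0.242). The limma-voom interval was 0.434 to 0.853 times the control level.

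The call for Ankrd1 turned on the test and on which mice entered it. It passed with DESeq2 (adjusted p = 0.0442), which called 1.84% of genes and 1.29% as lower, and in edgeR without control mice 3 and 4 (log2 difference -0.96, adjusted p = 0.0351), which called 1.89% and 1.07% as lower. Those mice had the lowest Ankrd1 of the controls, so leaving them out widens the gap by construction. Over all 17 alternatives adjusted p ran from 0.0351 to 0.876, the highest with library size as a covariate. Library size went largely with diet, so that fit cannot fully tell them apart. Summed macrophage markers (11 genes) were at 361 and 408 CPM in control mice 3 and 4, between 60.7 and 156 CPM in the other controls and between 30.2 and 64.3 CPM in high-fat mice. All 11 had a negative difference with an unadjusted p under 0.05, and their part in the Ankrd1 difference was not tested. Ankrd1 is also abundant in striated muscle. The 8 striated muscle markers summed to 2.97 to 6.24 CPM in control and 4.84 to 10.6 CPM in high-fat libraries. Tnni2 was the most abundant of them (27 to 95 counts per library), and Acta1 had 1 to 46 counts. Actn2 was at 0 or 1 count and Ckm at no more than 5 counts in any library. The 3 striated muscle markers that could be tested were higher on the high-fat diet, 2 at an unadjusted p under 0.05. The part of striated muscle markers in the Ankrd1 level was not tested.

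Beside Ankrd1, Amotl2 and Lats2, a list of 22 genes often used as YAP and TAZ targets in cancers held 19 others, among them Ccn1 and Ccn2, which encode the matrix proteins CYR61 and CTGF. All 22 were tested and none passed over all genes in edgeR. At an unadjusted p under 0.05, 5 were lower on the high-fat diet and 0 higher, where 6.62% of all genes tested were lower and 5.45% higher by the same measure. Without control mouse 3 there were 8, 7 lower and Asap1 higher, and without control mice 3 and 4 also 8, 7 lower and Igfbp3 higher. Among all genes tested, those fits gave 2152 of 14462 and 2296 of 14586 in both directions together. With all libraries it was 1731 of 14337. Of the 22, 16 had a negative difference, with a median of -0.09, and without the 3 members it was 13 of 19 with a median of -0.10, beside 48.6% negative and a median of 0.01 over all genes tested. DESeq2 called 2 as lower, Ankrd1 and Nt5e, and edgeR without control mice 3 and 4 called 3, Gadd45a with them. Those mice were the lowest controls for Ankrd1 and Gadd45a, and control mouse 3 for Nt5e. Leaving both mice out therefore widens these gaps by construction, for Nt5e through mouse 3. The Nt5e difference was -1.10 with all libraries, -1.25 without control mouse 3 and -1.07 without control mouse 4.

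The 4 further genes with an unadjusted p under 0.05 were Nt5e, Dock5, Gadd45a and Rbms3. Gadd45a, a growth arrest gene induced by DNA damage and stress, was at 55.3, 56.1, 12.5, 17.1 and 32.3 CPM in control mice and at 20.2, 12.1, 9.77, 10.9 and 16.8 CPM in high-fat mice. As with Ankrd1, control mice 1, 2 and 5 were the high libraries and control mice 3 and 4 came within the high-fat range. The log2 difference was -1.31 (SE 0.42, edgeR adjusted p = 0.255), and its exons overlap E230016M11Rik on the opposite strand. Nt5e, the ectoenzyme CD73 that makes adenosine, was scarce, at 1.75 ± 0.450 CPM in control and 0.811 ± 0.241 CPM in high-fat mice (SD, n = 5; edgeR adjusted p = 0.172). Dock5, an activator of the small GTPase Rac, was at 47.7 ± 6.80 and 39.1 ± 1.17 CPM (SD, n = 5; edgeR adjusted p = 0.242). Rbms3, an RNA-binding protein gene, was at 24.9 ± 3.25 and 17.8 ± 4.37 CPM (SD, n = 5; edgeR adjusted p = 0.266), with high-fat mouse 5 lowest at 10.7 CPM.

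The 3 most abundant targets were Axl, Ccn1 and Myof. Axl, a receptor tyrosine kinase gene, was at 950 ± 44.3 CPM in control and 946 ± 151 CPM in high-fat mice (SD, n = 5; log2 difference -0.01, SE 0.10). Myof, which encodes the membrane repair protein myoferlin, was at 346 ± 27.1 and 353 ± 69.4 CPM (SD, n = 5; log2 difference 0.03, SE 0.13). Ccn1 was at 853 ± 116 and 736 ± 230 CPM (SD, n = 5), with a log2 difference of -0.21 (SE 0.18, edgeR adjusted p = 0.718), and both the highest value (1114 CPM, mouse 2) and the lowest (493 CPM, mouse 3) came from high-fat mice. Its log2 difference was -0.40 without high-fat mouse 2, where its unadjusted p was under 0.05, and -0.10 without high-fat mouse 3.

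Ccn1 and Ccn2, often read together as readouts of YAP and TAZ, stood far apart in these cells. Per kilobase of exon, Ccn1 averaged 394 ± 90.3 CPM and Ccn2 0.412 ± 0.164 CPM over the 10 libraries (SD, n = 10), and Ccn2 had only 203 counts in all 10 together. Neither sequence shared a 50-base window with another gene, though 665 exon bases of Ccn2 lie opposite Gm15270. At so low a level a difference in Ccn2 was hard to detect, its limma-voom interval running from 0.783 to 2.34 times the control level.

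**Figure D3:**
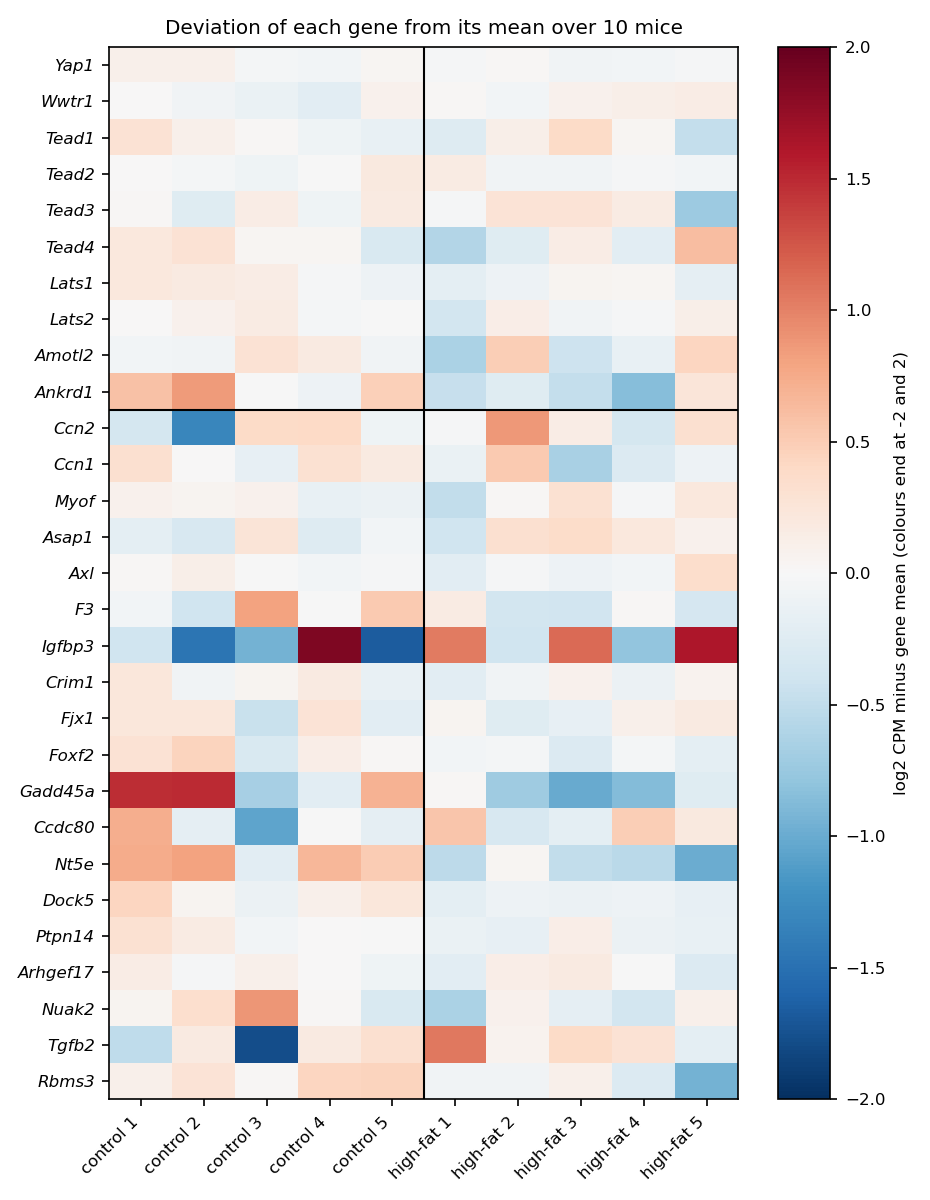
Log2 CPM of each gene minus its mean over the 10 mice (colour), for the 10 Hippo genes (above the horizontal line) and the other 19 listed targets (below it), with mice as columns and control mice left of the vertical line. Ankrd1 and Gadd45a are both highest in control mice 1, 2 and 5, and Amotl2 instead is highest in high-fat mice 2 and 5.

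Upstream of and beside the LATS kinases, a list of 30 genes was read from the same fit, and 26 were expressed well enough to test. Ptpn14 is in this list and in that of the targets, and so enters the counts of both. None passed over all genes in edgeR, and 2 had an unadjusted p under 0.05, 1 in each direction (background 5.45% higher and 6.62% lower). Leaving out 1 library moved that count to between 1 (without control mouse 2, high-fat mouse 2 or high-fat mouse 4) and 5 (without control mouse 3 or high-fat mouse 5), and it was 5 without control mice 3 and 4. Among all genes tested, the fits named with a count of 1 gave 1429 of 14490, 1526 of 14475 and 1365 of 14502. Those with a count of 5 gave 2152 of 14462, 2068 of 14527 and 2296 of 14586. With all libraries, the differences of the upstream genes had a median of -0.03, with 17 of 26 negative. Among the core kinase and adaptor genes, Stk3 and Stk4, which encode the MST kinases, had log2 differences of -0.01 (SE 0.06) and -0.14 (SE 0.07), the adaptor Sav1 (whose exons overlap those of Atl1 on the opposite strand) of 0.09 (SE 0.08), and Nf2, the tumor suppressor merlin, of -0.02 (SE 0.06). Mob1a, which encodes a LATS cofactor, was at 256 ± 22.3 CPM in control and 257 ± 18.9 CPM in high-fat mice (SD, n = 5). The kinase gene Map4k4 was at 281 ± 25.7 and 279 ± 21.7 CPM, and Amotl1, a relative of Amotl2, at 201 ± 21.4 and 192 ± 26.6 CPM (SD, n = 5).

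The 2 genes with an unadjusted p under 0.05 were Taok2 and Vgll3. Taok2, a kinase gene that acts above the MST kinases, was at 68.7, 68.4, 89.4, 84.0 and 56.8 CPM in control mice and at 81.5, 102, 121, 105 and 71.2 CPM in high-fat mice. High-fat mice 2 to 4 were above every control, and the log2 difference was 0.39 (SE 0.15, edgeR adjusted p = 0.333). Taok2 no longer had an unadjusted p under 0.05 without control mouse 1, 2 or 5, or without high-fat mouse 2, 3 or 4. It also lost it with library size, which went largely with diet, as a covariate. Vgll3 encodes a vestigial-like cofactor that binds TEADs at the surface YAP uses, and was at 16.6, 13.3, 27.8, 24.5 and 21.1 CPM in control mice and at 13.4, 17.3, 11.8, 11.9 and 15.3 CPM in high-fat mice. Control mice 3 and 4, which had the most macrophage marker transcript, were the highest, and the part of such cells in this value was not tested. The log2 difference was -0.56 (SE 0.19, edgeR adjusted p = 0.262), and it was -0.28 (edgeR adjusted p = 0.458) without those 2 mice, where Vgll3 no longer had an unadjusted p under 0.05. Vgll3 also lost it with library size as a covariate, and kept it with any 1 library left out. Its relative Vgll4, a repressor of TEAD activity, was at 74.7 ± 7.37 and 82.8 ± 5.32 CPM (SD, n = 5; edgeR adjusted p = 0.487). Vgll1 and Vgll2 had 2 counts each over all libraries, and the atypical cadherin genes Fat4 and Dchs1 had 110 and 63, so these 4 were not tested.

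**Figure D4:**
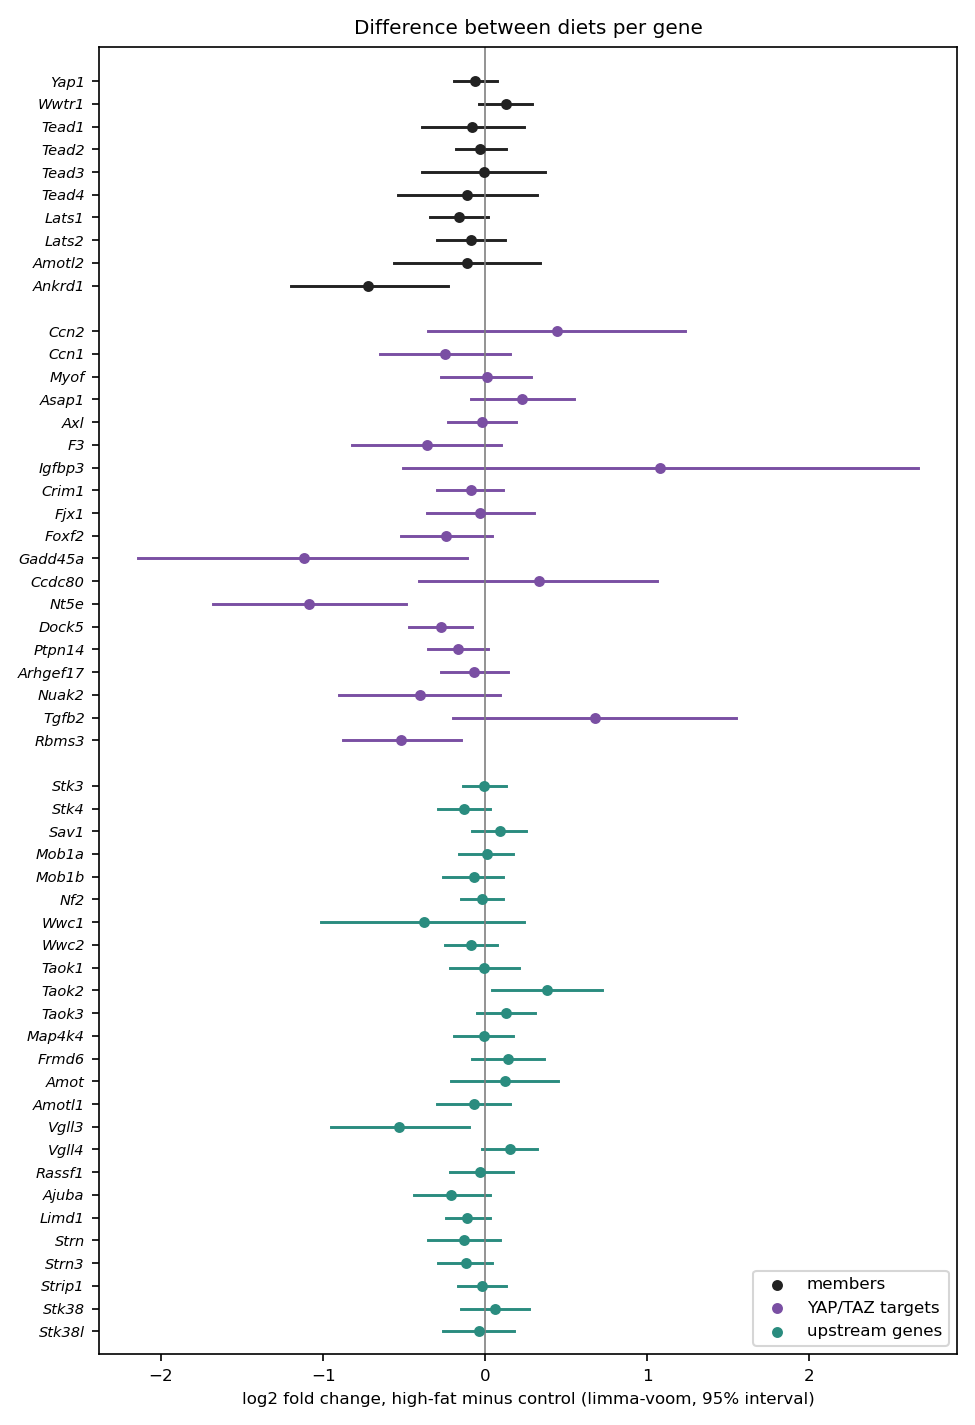
Log2 fold change, high-fat minus control, with its 95% interval from limma-voom (horizontal axis) for the 10 Hippo genes (black), the other listed targets (purple) and the other tested upstream genes (green), unadjusted for the number of genes. Ptpn14, which is in both lists, is shown with the targets. The interval of Ankrd1, from -1.20 to -0.23, is the one among the 10 Hippo genes that does not include 0.

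Ranked by mean level per kilobase of exon, the 10 genes ran from Wwtr1 (102 ± 8.15 CPM per kilobase, SD, n = 10), through Tead2 (42.0 ± 2.99), Yap1 (23.6 ± 1.08), Amotl2 (22.5 ± 5.43), Ankrd1 (20.6 ± 7.67), Lats1 (17.2 ± 1.76), Tead1 (15.5 ± 2.69), Tead4 (9.61 ± 2.35) and Lats2 (4.49 ± 0.443), to Tead3 (3.90 ± 0.720). Wwtr1 was above Tead2, Tead2 above Yap1 and Tead4 above Lats2 in 10 of 10 libraries. Yap1 was above Amotl2 in 6 of 10 libraries, and Amotl2 above Ankrd1 and Ankrd1 above Lats1 in 7 of 10 each. No order was tested. The order held in 8 of 10 libraries for Lats1 over Tead1 and for Lats2 over Tead3, and in 9 of 10 for Tead1 over Tead4. By the longest transcript in place of the union of exons, Lats1 and Tead1 changed places, and so did Lats2 and Tead3. The level of Lats2 is less certain, as given above, and so is its place in this order.

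For Yap1, Wwtr1 and Ankrd1, the genes of mean level at least 5 CPM with the most similar profile over the 10 libraries were picked by Pearson r of log2 CPM out of 10837 others. They are a description, since they were picked as the highest of many values. Ankrd1 was most like Steap2 (r = 0.97), Gm11224 (r = 0.96) and Sesn2 (r = 0.96), and with each diet centred on its own mean these values were 0.93, 0.93 and 0.91. Yap1 was most like Slc38a7 (r = 0.97), Ywhag (r = 0.95) and Car6 (r = 0.94). Wwtr1 was most like Rhod (r = 0.88), Zfp37 (r = 0.88) and Bloc1s2-ps (r = 0.85).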

How the data were processed

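The authors deposited raw read counts per gene, as whole numbers in 1 table with 1 column per mouse. Per the submitters' processing notes the tools were cutadapt 1.15, FastQC 0.11.5, BWA 0.7.12 and DESeq2 1.24.0, and the builds GRCm38 and mm10, without a role for any; which program counted reads, on which annotation and with which strand setting, is not given in the sources used here. BWA does not split a read across an intron, so reads over exon junctions may be counted less if it mapped to the genome. Identifiers were matched without version to GENCODE M21, which gave symbols, coordinates and exon lengths. Main test: edgeR 4.0.16 in R 4.3.3 with TMM, filterByExpr, robust quasi-likelihood with a single term for diet, Benjamini-Hochberg adjustment over all genes tested and a threshold of 0.05; the SE is the absolute difference over the square root of F. Intervals came from limma 3.58.1 (voom). Alternatives were DESeq2 1.42.0, limma-voom, RLE factors, no filter, a block on mouse number, library size as a covariate, and libraries left out. The scripts were tested on simulated counts.

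Named genes were the 10 members, listed upstream and target genes with an unadjusted p under 0.05 or among the 3 most abundant of their list, and the 3 closest profiles of Yap1, Wwtr1 and Ankrd1; other listed genes were named after their values were seen. Members and lists were chosen with earlier results of these data known. The target list was written from memory of a published one. Each library is a separate mouse by its title. A count of 3, the limit that a count of 0 allows, was 0.158 to 0.183 CPM; it covers counting error only.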

Additional observations from a re-analysis of the deposited data

Results flagged for a closer look

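Within a diet group of 5, a library was set apart where its gap to the nearest other library exceeded 0.71 of the group's range (Dixon's 95% value). Of 58 groups examined, 5 met this, and chance alone flags about 1 in 20 groups. Tead2 was at 224 CPM in high-fat mouse 1, above the other 4 high-fat mice, and Map4k4 was at 241 CPM in the same mouse, below the others. The log2 ratio of Tead4 to Tead1 counts was -1.53 in high-fat mouse 5, and Axl was at 1205 CPM in that mouse, both above the other high-fat mice. The summed TEAD level was 74.8 CPM per kilobase in high-fat mouse 3, above the other high-fat mice. All 5 were high-fat libraries; their causes were not tested.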

How the results depend on the processing

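In edgeR 9 genes passed over all genes tested. The count was 326 with DESeq2, 5 with limma-voom, 53 without the low-count filter, 0 with library size as a covariate (817 at an unadjusted p under 0.05), 276 without control mice 3 and 4, and 1 to 27 with 1 library left out. Library size went largely with diet, so the fit with it as a covariate cannot fully tell them apart. DESeq2 called 97 higher and 229 lower, and the fit without control mice 3 and 4 called 120 and 156. Of the 10 Hippo genes 0 passed in edgeR, 1 with DESeq2 and 1 without control mice 3 and 4 (Ankrd1 both times); at an unadjusted p under 0.05 there was 1 in each of these and in limma-voom, 0 with library size and 1 to 3 with 1 library left out. Of the targets 0, 2 and 3 passed in the same fits. Genes of any kind with an unadjusted p under 0.05 numbered 1731 in edgeR with all libraries and 1227 to 2152 with 1 library left out. Mouse numbers in the titles are shared between diets, while the deposited column names number the high-fat mice on from the controls. Deviations of same-numbered mice correlated at r = 0.225, -0.36, 0.333, -0.0733 and 0.147 over genes, above 0.1 in 3 of 5 pairs and not in all, so the numbers were not taken to pair mice; with it as a replicate block 16 genes passed and no listed gene. Ankrd1 was negative in all 17 alternatives, between -0.96 and -0.58. Gadd45a (-1.78, adjusted p = 0.00543) and Nt5e (-1.26, adjusted p = 0.0439) passed in edgeR without control mice 3 and 4, and Nt5e (-1.11, adjusted p = 0.0403) with DESeq2. Control mice 3 and 4 were the lowest controls for Gadd45a, and control mouse 3 for Nt5e. Leaving both mice out therefore widens these gaps by construction, for Nt5e through mouse 3.

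Signs turned where log2 differences were near 0. Tead3 was -0.01 with limma-voom, -0.0015 with the replicate block and -0.16 with library size; with library size Tead4 was 0.04, Amotl2 0.16, Axl 0.08 and Myof -0.02; without control mice 3 and 4 Amotl2 was 0.08 and Mob1a -0.05. With 1 library left out, values ran from -0.17 to 0.05 for Tead1, -0.07 to 0.03 for Tead2, -0.04 to 0.17 for Tead3, -0.27 to 0.06 for Tead4, -0.19 to 0.08 for Amotl2, -0.05 to 0.04 for Map4k4, -0.03 to 0.06 for Mob1a, -0.11 to 0.05 for Axl and -0.05 to 0.14 for Myof. Yap1, Wwtr1 and Lats1 kept their sign in all 17, as did Lats2, which was -0.0032 without high-fat mouse 1. By longest transcript, a length chosen after seeing the data, Tead3 made up 7.65% of TEAD transcript. The causes were not tested.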
